A study of Mus musculus with 6 samples.

Results

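Expression of 7 genes of the follicular helper program, *Bcl6*, *Prdm1*, *Cxcr5*, *Icos*, *Sh2d1a*, *Ascl2* and *Tox2*, was followed across Naive, Th17 and Th1 cells. They were chosen by gene symbol from the 24223 genes counted, and all 7 were found. The RNA-Seq data comprised 6 libraries, with 2 biological replicates for each cell type. Naive CD4+ T cells came from lymph nodes and spleens, pooled, of C57BL/6 mice aged 1 to 2 months and were not activated. For Th1, such cells were stimulated through CD3 and CD28 with IL-12, IL-2 and an antibody against IL-4. For Th17, the same stimulation was given with TGF-β, IL-6, IL-1β and IL-23 and antibodies against IL-4 and IFN-γ, and both cultures were collected on day 5. Stimulation and time in culture were therefore shared by Th17 and Th1 and absent from Naive, so that their part in a difference from Naive and that of the polarizing cytokines cannot be told apart. No sample is labelled as follicular helper cells.

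Follicular helper T cells are the CD4+ cells that enter B cell follicles and help B cells to mature in germinal centres. *Bcl6* encodes the zinc finger repressor that this fate requires, and *Prdm1* encodes Blimp-1, the repressor that opposes it, the pair acting against each other in T cells as in B cells. *Ascl2* and *Tox2* encode further transcription factors of the program, *Cxcr5* the chemokine receptor that guides cells to the follicle and *Icos* a costimulatory receptor. *Sh2d1a* encodes the adaptor SAP, through which some receptors of the SLAM family signal during contact with B cells.

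The genes did not move as a unit. *Icos* rose in both polarized cell types, *Cxcr5* fell in both, *Tox2* fell in Th1, and *Prdm1* rose in Th1. *Bcl6* and *Sh2d1a* passed the test in no comparison, and *Ascl2* was barely detected in any library. The 3 pairs of cell types were tested by the quasi-likelihood method of edgeR on 13607 genes that passed a filter on low counts. A gene is said to be called where its adjusted p (Benjamini-Hochberg, over all these genes) was under 0.01 and its log2 fold change was above 1 in size. In Th17 compared with Naive, 2 of the 6 genes tested were called, *Icos* higher and *Cxcr5* lower, where 5.43% of all genes tested were called (4.01% higher and 1.43% lower). In Th1 compared with Naive, 4 were called, *Icos* and *Prdm1* higher and *Cxcr5* and *Tox2* lower, against 7.45% of all genes (4.64% higher and 2.81% lower). In Th1 compared with Th17, 1 was called, *Tox2* lower, against 5.53% of all genes (2.70% higher and 2.83% lower). The median log2 fold change of the 6 genes in these comparisons was 0.48, 0.28 and -0.19, beside -0.02, -0.02 and -0.03 over all genes tested. Scaling by library size alone moved the median over all genes to -0.26 in Th1 compared with Naive and to -0.24 in Th1 compared with Th17, and the share of higher genes among those called between Th1 and Th17 from 48.8% to 36.5%. The 3 comparisons share libraries, since each cell type enters 2 of them, and their results are not independent of each other.

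**Figure D1:**
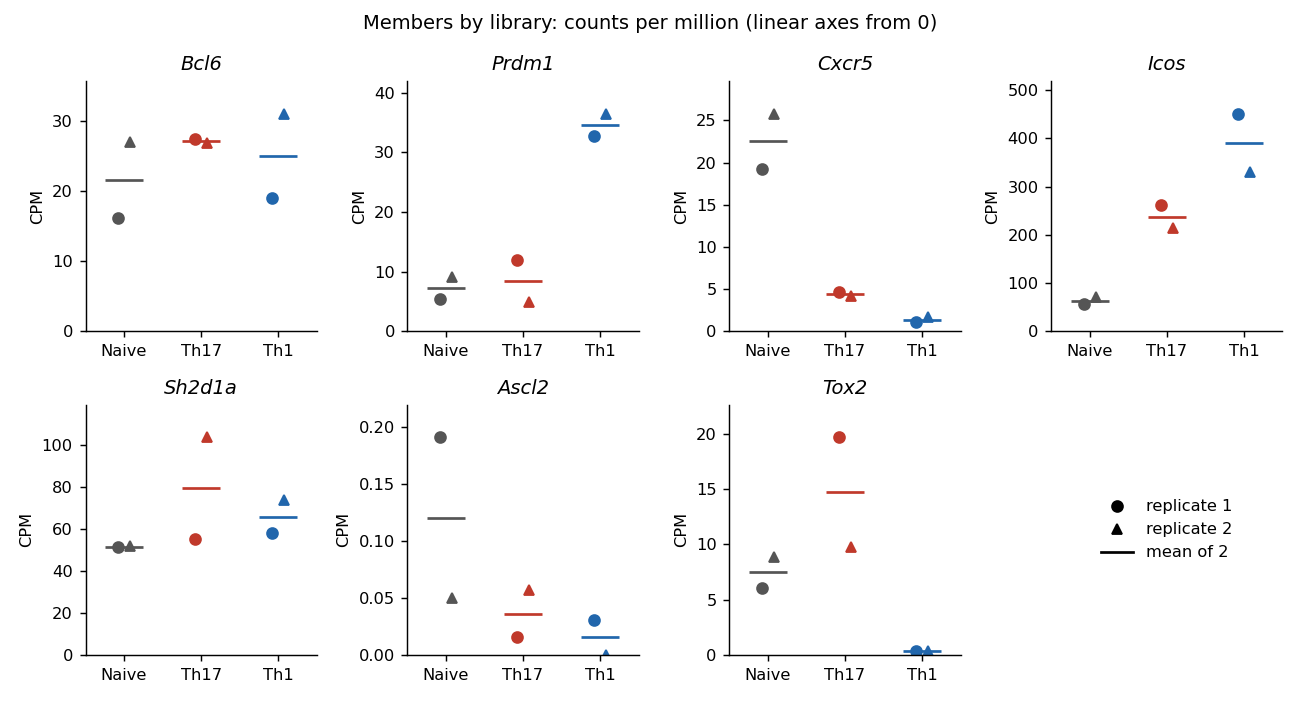
CPM (counts scaled by the library total after edgeR's TMM normalization, on linear axes that start at 0) of the 7 genes in each of the 6 libraries, with Naive in grey, Th17 in red and Th1 in blue, circles for replicate 1, triangles for replicate 2 and a line at the mean of 2. *Icos* lay lowest in Naive and *Cxcr5* highest, *Tox2* was near 0 in Th1, *Prdm1* was highest in Th1, and the *Bcl6* points of the 3 cell types overlapped.

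The libraries held between 17742158 and 69080017 counts, and replicate 1 was 3.38 to 3.77 times as deep as replicate 2 in each cell type. A gene with 3 counts in a library, taken as the limit of detection, stood at 0.0440 to 0.190 CPM. Replicates correlated with a Pearson's r of 0.970 to 0.978 in log2 CPM, across genes that are not independent of each other. Summed Th17 and Th1 markers were highest in the libraries so labelled. The 4 Th17 genes summed to 1405 and 1872 CPM in Th17 against at most 5.94 CPM elsewhere. The 4 Th1 genes summed to 763 and 775 CPM in Th1 against at most 93.9 CPM elsewhere. By group means, 2 of these 4 were higher in Th17 than in Naive. Of them *Ifng* was called (log2 fold change 3.64), while *Tbx21* (-2.57) and *Cxcr3* (-2.05) were called lower. The 6 T cell genes summed to 2142 to 3173 CPM over all libraries. In both Th17 libraries this sum (2185 and 2757 CPM) was below that of 12 myeloid genes (3081 and 3516 CPM). Sequenced reads are not independent molecules, and depth does not measure the spread between replicates. With 2 libraries against 2, an exact permutation test of 1 gene cannot give a two-sided p-value under 0.333, so that p-values were taken from edgeR, which shares the spread between genes. In bulk RNA, fewer cells of a type and less RNA per cell cannot be told apart.

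*Bcl6* lies on chromosome 16 (GRCm38, the assembly also called mm10, chr16:23965052-23988852, minus strand, ENSMUSG00000022508, 8 blocks after merging overlapping exons) and *Prdm1* on chromosome 10 (chr10:44437177-44528501, minus strand, ENSMUSG00000038151, 10 exon blocks), with positions from GENCODE vM21. The 250 bases before each annotated RefSeq start (GRCm38.p6) of these antagonists are given, since the balance between them is the measurement that the *Bcl6* and *Prdm1* results turn on. Both strands were searched for TTCNNNGAA, the spaced palindrome read by STAT proteins and close to the *Bcl6* motif. They were also searched for TGANTCA, the AP-1 motif with any base allowed in the middle. Further searches were for CAGCTG, 1 form of the E-box, and for the T-box letters GGTGTGA. Capitals mark the matches, and sequences run 5′ to 3′ on the strand of the gene.
Bcl6, first start, chr16:23988853-23989102, minus strand: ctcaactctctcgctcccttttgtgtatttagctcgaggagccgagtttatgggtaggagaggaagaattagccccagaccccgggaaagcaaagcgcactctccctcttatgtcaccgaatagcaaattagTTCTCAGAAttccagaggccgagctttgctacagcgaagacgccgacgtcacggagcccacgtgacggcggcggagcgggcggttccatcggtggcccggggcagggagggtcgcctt
Bcl6, second start, chr16:23981284-23981533, minus strand: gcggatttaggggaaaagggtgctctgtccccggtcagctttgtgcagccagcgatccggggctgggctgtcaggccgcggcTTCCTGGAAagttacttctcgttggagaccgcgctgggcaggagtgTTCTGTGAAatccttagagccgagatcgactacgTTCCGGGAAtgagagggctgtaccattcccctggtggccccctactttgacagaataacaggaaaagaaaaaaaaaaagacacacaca
Prdm1, chr10:44458749-44458998, minus strand: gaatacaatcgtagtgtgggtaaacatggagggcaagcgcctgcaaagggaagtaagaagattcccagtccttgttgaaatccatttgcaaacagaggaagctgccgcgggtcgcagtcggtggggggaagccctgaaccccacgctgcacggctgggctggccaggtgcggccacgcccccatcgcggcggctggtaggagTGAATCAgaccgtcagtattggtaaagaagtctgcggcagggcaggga
The first *Bcl6* window lies outside the gene, and the second lies in an intron. The *Prdm1* window lies inside the gene model and holds no exon of it. TTCNNNGAA was present at 1 position before the first *Bcl6* start (TTCTCAGAA, its first base 118 bases before the start, written -118) and at 3 positions before the second, as TTCCTGGAA at -168, TTCTGTGAA at -122 and TTCCGGGAA at -88. Of 32841 RefSeq promoter windows of the same length, 7.02% held this motif. The *Prdm1* window held 1 match to TGANTCA and no TTCNNNGAA. The match was TGAATCA at -48, with A in place of the C or G in the middle of the usual AP-1 motif. TGANTCA was found in 6.75% of windows. CAGCTG was present in 13.0% and the T-box letters in 3.33% of windows, and neither was present in these 3. Other forms of the E-box were not searched for. Of the 7 genes, 4 had windows available, and the windows of *Tox2* and *Ascl2* held none of the 4 letter patterns searched. A match describes letters and is not a measured binding site.

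*Bcl6* was expressed at 16.1 and 27.1 CPM in the Naive libraries, at 27.5 and 26.9 CPM in Th17 and at 19.1 and 31.1 CPM in Th1. The values of the 3 cell types overlapped, and the lower value of Naive and of Th1 was that of replicate 1. Means for Naive, Th17 and Th1 were 21.6 ± 7.75, 27.2 ± 0.369 and 25.1 ± 8.51 CPM (SD, n = 2), so that no neighbours in this order differed by more than their spread. Th17 differed from Naive by a log2 fold change of 0.34 (95% interval -0.46 to 1.13, edgeR adjusted p = 0.54). Th1 differed from Naive by a log2 fold change of 0.22 (-0.58 to 1.01, edgeR adjusted p = 0.74) and from Th17 by one of -0.12 (-0.92 to 0.68, edgeR adjusted p = 0.83). These intervals reach at most 1.13 on the log2 scale in either direction, so a larger change of *Bcl6* lies outside them, while smaller ones could not be resolved with 2 replicates. The sign of the Th1 estimates was not fixed: without Naive replicate 1 the estimate for Th1 against Naive was -0.12, without Th1 replicate 2 it was -0.17, and with scaling by library size alone it was -0.05.

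*Prdm1* was measured at 5.46 and 9.16 CPM in Naive, at 12 and 4.87 CPM in Th17 and at 32.7 and 36.5 CPM in Th1. Both Th1 libraries lay above the other 4, while the Naive and Th17 libraries overlapped. The means for Naive, Th17 and Th1 were 7.31 ± 2.62, 8.42 ± 5.03 and 34.6 ± 2.66 CPM (SD, n = 2). *Prdm1* rose 4.76-fold in Th1 compared with Naive, a log2 fold change of 2.25 ± 0.46 (SE, as for all log2 fold changes below, 95% interval 1.23 to 3.28, edgeR adjusted p = 0.0091). This call stood close to the threshold and was kept in 10 of 15 alternative settings. It could not be lost in 1 of these, an adjusted p under 0.05 in the same fit. It was lost without Naive replicate 1 (log2 fold change 1.91, edgeR adjusted p = 0.055), without Naive replicate 2 (2.66, edgeR adjusted p = 0.011), without Th1 replicate 1 (2.37, edgeR adjusted p = 0.017) and without Th1 replicate 2 (2.18, edgeR adjusted p = 0.024), and with library size alone (1.99, edgeR adjusted p = 0.028). Compared with Th17, the log2 fold change in Th1 was 2.02 ± 0.45 (1.01 to 3.04), and its edgeR adjusted p of 0.017 did not pass the threshold. DESeq2, which called 13.2% of its 13772 genes in this comparison, called *Prdm1* there (log2 fold change 2.03, DESeq2 adjusted p = 3.4e-04), and edgeR called it without Naive replicate 2 (2.03, edgeR adjusted p = 0.0087). Between Th17 and Naive the log2 fold change was 0.23 (-0.76 to 1.22, edgeR adjusted p = 0.74), and it was -0.57 without Th17 replicate 1 and -0.10 without Naive replicate 1.

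The ratio of *Bcl6* counts to *Prdm1* counts is formed within a library and needs no scaling. It was 2.95 and 2.96 in Naive and 2.29 and 5.53 in Th17, against 0.583 and 0.853 in Th1. *Bcl6* counts thus exceeded *Prdm1* counts in all 4 Naive and Th17 libraries and were the smaller of the pair in both Th1 libraries. On the log2 scale, with 0.5 added to each count, the mean was 1.56 ± 6.8e-05 in Naive, 1.83 ± 0.90 in Th17 and -0.50 ± 0.39 in Th1 (SD, n = 2). The near identity of the Naive values is a property of 2 libraries and does not measure the spread of this ratio, for which the SD pooled over the 3 cell types was 0.56. The log2 difference of the Th1 mean was -2.07 from Naive and -2.33 from Th17, and that of Th17 from Naive was 0.27. No test of the ratio was run. Per kilobase of exon, levels in Th1 were 5.87 and 6.54 CPM per kb for *Prdm1* and 2.85 and 4.64 CPM per kb for *Bcl6*, while in Naive they were 0.979 and 1.64 for *Prdm1* and 2.41 and 4.04 for *Bcl6*. The order of the 2 genes in each cell type was therefore the same with and without correction for length.

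**Figure D2:**
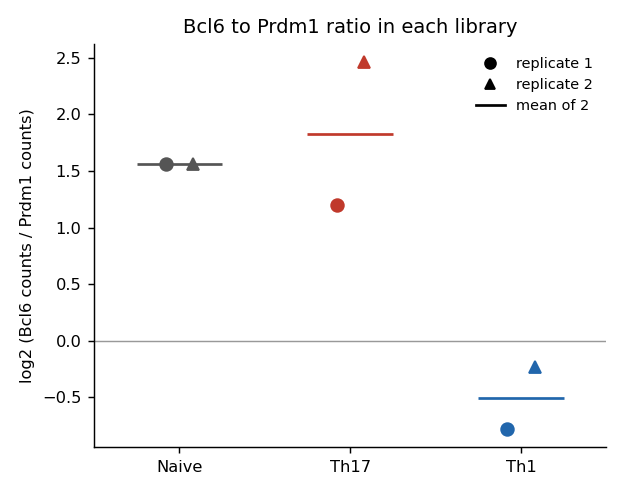
Log2 ratio of *Bcl6* to *Prdm1* counts in each library, with a horizontal grey line where the counts are equal, circles for replicate 1, triangles for replicate 2 and coloured lines at the means of 2. The Naive and Th17 libraries lie between 1.2 and 2.46, and the Th1 libraries at -0.78 and -0.23.

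*Cxcr5*, which encodes the receptor for the follicular chemokine CXCL13, was highest in Naive, at 19.2 and 25.8 CPM. Th17 held 4.70 and 4.19 CPM and Th1 1.11 and 1.64 CPM, and the ranges of the 3 cell types did not overlap. The means were 22.5 ± 4.65, 4.44 ± 0.361 and 1.38 ± 0.375 CPM (SD, n = 2), and the lowest library count was 26, above the limit of detection. *Cxcr5* fell 16.7-fold in Th1 compared with Naive (log2 fold change -4.06 ± 0.42, 95% interval -5.00 to -3.12, edgeR adjusted p = 3.0e-04), a call made in all 15 alternative settings. In Th17 compared with Naive it fell 5.05-fold (log2 fold change -2.34 ± 0.38, -3.19 to -1.48, edgeR adjusted p = 0.0037). That call was lost without Naive replicate 2 (-2.12, edgeR adjusted p = 0.014), without Th17 replicate 1 (-2.42, edgeR adjusted p = 0.034) and without Th17 replicate 2 (-2.26, edgeR adjusted p = 0.040). Th1 lay below Th17 by a log2 fold change of -1.73 ± 0.39 (-2.61 to -0.84), with an edgeR adjusted p of 0.018, which does not pass the threshold. DESeq2 called it (-1.75, DESeq2 adjusted p = 3.7e-04).

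The *Cxcr5* gene (chr9:44511787-44561877, minus strand, ENSMUSG00000047880, 5 exon blocks) shares 110 bases of its span with *Bcl9l*, a Wnt pathway cofactor on the opposite strand. Whether these bases lie in exons of both genes was not measured. *Bcl9l* was measured at 106 and 185 CPM in Naive, 49.2 and 25.5 CPM in Th17 and 57.4 and 119 CPM in Th1. Like *Cxcr5*, it was lower in both Th17 libraries than in both Naive libraries, whereas between Naive and Th1 it overlapped. The labels name Smart-seq2, which does not mark strand, whereas the supplementary code counts on the reverse strand and the methods name default parameters. Whether the libraries kept strand is thus not settled, nor is whether reads of the shared bases can be told apart.

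*Icos*, a receptor that is induced when T cells are activated, stood at 56.0 and 70.6 CPM in Naive, 262 and 214 CPM in Th17 and 451 and 329.9 CPM in Th1, without overlap between cell types. The means were 63.3 ± 10.3, 238 ± 33.9 and 391 ± 85.8 CPM (SD, n = 2). *Icos* rose 3.76-fold in Th17 (log2 fold change 1.91 ± 0.30, 95% interval 1.25 to 2.57, edgeR adjusted p = 0.0028) and 6.17-fold in Th1 (2.63 ± 0.30, 1.95 to 3.31, edgeR adjusted p = 5.1e-04), each compared with Naive. The Th1 call was made in all 15 alternative settings. For Th17 the call was lost without Naive replicate 1 (1.75, edgeR adjusted p = 0.020) and without Th17 replicate 1 (1.76, edgeR adjusted p = 0.021). Between Th1 and Th17 the log2 fold change was 0.72 (0.07 to 1.36, edgeR adjusted p = 0.11), which was not called. *Icos* lies at chr1:60977927-61000320 (plus strand, ENSMUSG00000026009, 5 exon blocks) and shares 2485 bases with the transcript model Gm37039 on the same strand, which is not among the genes counted.

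*Sh2d1a* was expressed at 51.7 and 51.8 CPM in Naive, 55.3 and 104 CPM in Th17 and 58.4 and 73.8 CPM in Th1. All 4 polarized libraries lay above both Naive libraries, and Th17 and Th1 overlapped. The log2 fold change was 0.62 in Th17 compared with Naive (95% interval -0.10 to 1.34, edgeR adjusted p = 0.21), 0.35 in Th1 compared with Naive (-0.37 to 1.07, edgeR adjusted p = 0.52) and -0.27 in Th1 compared with Th17 (-0.99 to 0.45, edgeR adjusted p = 0.58). The last of these was 0.26 without Th17 replicate 2, the library at 104 CPM. None of them was called in any of 15 alternative settings. The gene lies on the X chromosome (chrX:42502453-42529330, plus strand, ENSMUSG00000005696, 6 exon blocks) and shares 1465 bases with *Tenm1* on the opposite strand, a gene at no more than 0.0566 CPM in any library.

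*Tox2*, which encodes a high mobility group box factor, was measured at 6.08 and 8.86 CPM in Naive and at 19.7 and 9.73 CPM in Th17. In Th1 it stood at 0.371 and 0.379 CPM, from 24 and 6 counts, which is above the limit of detection in both libraries. Both Th17 libraries lay above both Naive libraries, replicate 2 by a small margin, and both Th1 libraries lay far below the rest. The means for Naive, Th17 and Th1 were 7.47 ± 1.97, 14.7 ± 7.04 and 0.375 ± 0.0057 CPM (SD, n = 2). The near identity of the Th1 values, which rest on 24 and 6 counts, does not measure the spread of *Tox2* there. *Tox2* fell 19.7-fold in Th1 compared with Naive (log2 fold change -4.30 ± 0.53, 95% interval -5.49 to -3.12, edgeR adjusted p = 7.0e-04) and was 39.2-fold lower in Th1 than in Th17 (-5.29 ± 0.55, -6.51 to -4.07, edgeR adjusted p = 4.3e-04). Both calls were made in each of the 14 alternative settings that tested the gene. A minimum of 10 counts in every library removed it from the test through its low Th1 counts. Against Naive, Th17 had a log2 fold change of 0.99 (0.02 to 1.96, edgeR adjusted p = 0.14), which was not called. *Tox2* is found at chr2:163203125-163324170 (plus strand, ENSMUSG00000074607, 11 exon blocks).

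*Ascl2*, a basic helix-loop-helix factor that can turn on *Cxcr5*, held 13 and 1 counts in the Naive libraries, 1 count in each Th17 library and 2 and 0 counts in the Th1 libraries. Only Naive replicate 1 was above the limit of 3 counts, at 0.191 CPM, and this was 1 of the 3 deepest libraries. The gene (chr7:142966829-142969264, minus strand, ENSMUSG00000009248, 3 exon blocks) failed the filter on low counts and was not tested. In the 5 other libraries a level of up to 0.0459 to 0.190 CPM was not detectable at this depth.

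**Figure D3:**
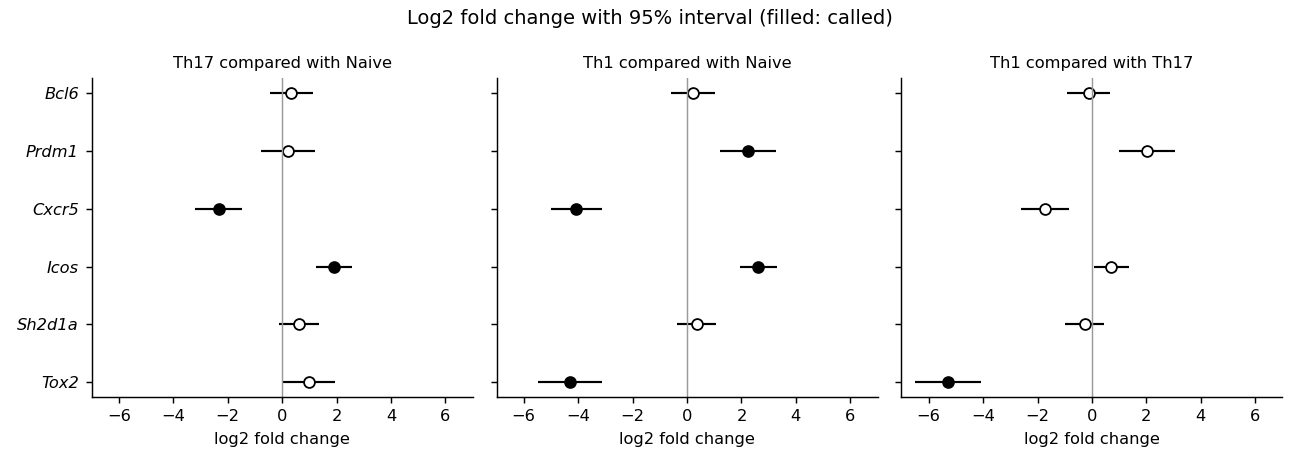
Log2 fold changes of the 6 genes tested in the 3 comparisons, as points with 95% intervals from edgeR, filled where the gene was called. The intervals of *Bcl6* and *Sh2d1a* include 0 in all 3 comparisons, and *Tox2* in Th1 compared with Th17 has the largest change, at -5.29.

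Levels can be set between genes only per length, here as CPM per kilobase of exon (mean ± SD, n = 2). With 2 libraries, a small SD does not show that a level was measured precisely. In Naive the order was *Icos* (18.5 ± 3.0), *Sh2d1a* (9.40 ± 0.015), *Cxcr5* (6.76 ± 1.39), *Bcl6* (3.23 ± 1.16), *Tox2* (2.2 ± 0.58) and *Prdm1* (1.31 ± 0.47). The libraries of *Bcl6* and *Tox2* overlapped, and the other neighbours did not. In Th17 *Tox2* (4.33 ± 2.07) and *Bcl6* (4.06 ± 0.055) overlapped below *Icos* (69.4 ± 9.89) and *Sh2d1a* (14.5 ± 6.23), and so did *Prdm1* (1.51 ± 0.90) and *Cxcr5* (1.33 ± 0.11) at the lower end. In Th1 the order was *Icos* (114 ± 25), *Sh2d1a* (12 ± 1.98), *Prdm1* (6.20 ± 0.48), *Bcl6* (3.74 ± 1.27), *Cxcr5* (0.414 ± 0.11) and *Tox2* (0.110 ± 0.0017), and no neighbours overlapped. *Prdm1* thus went from the last of these 6 in Naive to the third in Th1, and *Cxcr5* from the third to the fifth.

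The rest of the pathway was read from a list of 47 further genes, of which 46 were tested. The B cell chemokine gene *Cxcl13*, the untested one, had no count in any library, which allows a level of up to 0.0440 to 0.190 CPM. In Th17 compared with Naive 5 of the 46 were higher and 2 lower, with a median log2 fold change of -0.19. For Th1, 10 were higher and 4 lower than in Naive (median 0.30), and 6 were higher and 2 lower than in Th17 (median 0.36). Over all genes tested, the shares called higher and lower were 4.01% and 1.43% in the first of these comparisons, 4.64% and 2.81% in the next and 2.70% and 2.83% between Th1 and Th17, with medians of -0.02, -0.02 and -0.03, and the counts by role that follow are to be read against the same shares. Of the calls, 6 of 7, 6 of 14 and 3 of 8 were made in every alternative setting. Scaling by library size alone ended those of *Batf*, *Gpr183*, *Il6st*, *Slamf7* and *Tnfsf8* in Th1 compared with Naive. A fit of only the 4 libraries compared ended those of *Batf*, *Gpr183*, *Id3*, *Il6st* and *Tnfsf8* there. In Th1 compared with Th17, library size alone ended those of *Foxp1* and *Tnfrsf4*. A minimum of 10 counts in every library also ended that of *Foxp1*. Where leaving out 1 library ended a call, the log2 fold change moved by at most 0.35 and the edgeR adjusted p lay between 0.011 and 0.11. Values in parentheses in the following are log2 fold changes.

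Among 10 transcription factors tied to the follicular program, not all of which promote it (*Tcf7*, *Lef1*, *Maf*, *Batf*, *Irf4*, *Stat3*, *Tox*, *Pou2af1*, *Id3* and *Bach2*), 1 was higher and 1 lower in Th17 than in Naive, 1 was higher and 3 lower in Th1 than in Naive, and edgeR called none between Th1 and Th17, where 4 had an unadjusted p under 0.05 and DESeq2 called *Pou2af1*. *Tox*, a relative of *Tox2*, stood at 41.6 and 65.1 CPM in Naive, 2.91 and 3.17 CPM in Th17 and 3.08 and 4.99 CPM in Th1. Unlike *Tox2*, it fell in both polarized cell types (log2 fold change -4.14, edgeR adjusted p = 2.5e-04, in Th17 and -3.75, edgeR adjusted p = 3.2e-04, in Th1). *Batf*, an AP-1 family factor needed by several T helper fates, rose in Th17 (log2 fold change 2.00, edgeR adjusted p = 0.0013) and in Th1 (1.31, edgeR adjusted p = 0.0079), and the Th1 call was lost when any 1 library was left out. *Pou2af1*, a coactivator also used by B cells, fell in Th1 (-2.36, edgeR adjusted p = 0.0043, lost without Naive replicate 2 or Th1 replicate 2), and *Id3*, an inhibitor of E proteins, fell there as well (-1.54, edgeR adjusted p = 0.0049), a call kept only without Th17 replicate 2 when 1 library was left out.

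Of 8 factors that act against the program (*Stat5a*, *Stat5b*, *Klf2*, *Foxo1*, *Foxp1*, *Id2*, *Tbx21* and *Runx3*), all 8 had a positive log2 fold change in Th1 compared with Th17, with a median of 1.52 (7 of 8 and 1.29 with library size alone, where *Id2* was at -0.0035), beside 6642 of all 13607 genes. In Th17 compared with Naive 7 of the 8 were negative (median -0.69), and in Th1 compared with Naive 7 were positive (median 0.43). Between Th1 and Th17, edgeR called only *Tbx21* and *Foxp1*, and DESeq2 these with *Foxo1* and *Runx3*. *Tbx21* encodes T-bet, the factor that defines Th1, and measured 23.3 and 20.8 CPM in Naive, 4.58 and 2.72 CPM in Th17 and 138 and 158 CPM in Th1. It fell in Th17 (log2 fold change -2.57), rose in Th1 compared with Naive (2.75) and was higher in Th1 than in Th17 (5.31), and edgeR called all of these in every setting. *Id2*, an inhibitor of E proteins, rose in both cell types, from 76.2 and 74.8 CPM in Naive to 298 and 307 CPM in Th17 (2.00, edgeR adjusted p = 0.0011) and 349 and 351 CPM in Th1 (2.21, edgeR adjusted p = 5.6e-04). *Foxp1*, a forkhead factor that keeps T cells quiescent, was higher in Th1 than in Th17 (1.66, edgeR adjusted p = 0.0067), and the call was lost without either Th17 or either Th1 library. Among corepressor genes through which Bcl6 acts, none of the 4 read here (*Ncor1*, *Bcor*, *Hdac3* and *Mta3*) was called by edgeR in any comparison. An unadjusted p under 0.05 was seen for 2 of them between Th17 and Naive, for 0 between Th1 and Naive and for 1 between Th1 and Th17, and DESeq2 called *Bcor* between Th17 and Naive.

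Among 10 surface molecules and cytokine receptors, 2 were higher in Th17 than in Naive, 4 were higher and 1 lower in Th1 than in Naive, and 2 were higher in Th1 than in Th17. *Il2ra*, the high-affinity IL-2 receptor chain whose signal through STAT5 opposes *Bcl6*, stood at 42.3 and 71.8 CPM in Naive, 493 and 302 CPM in Th17 and 1035 and 831 CPM in Th1. It rose in both (log2 fold change 2.80, edgeR adjusted p = 0.0015, and 4.03, edgeR adjusted p = 2.6e-04), in every setting. The receptor for IL-6, a cytokine that was given to Th17, differed between its chains. *Il6ra* stood at 209.7 and 319 CPM in Naive, 149 and 97.0 CPM in Th17 and 51.1 and 79.3 CPM in Th1. The shared chain *Il6st* stood at 155 and 250.5 CPM in Naive, 85.6 and 76.4 CPM in Th17 and 556 and 655 CPM in Th1. In Th1 compared with Naive, *Il6ra* fell (-2.02, edgeR adjusted p = 0.0043, lost without Naive replicate 2 or Th1 replicate 1) while *Il6st* rose (1.58, edgeR adjusted p = 0.0076, kept only without Naive replicate 2 when 1 library was left out), and *Il6st* was also higher in Th1 than in Th17 (2.90, edgeR adjusted p = 6.1e-04). *Tnfrsf4*, the costimulatory receptor OX40, rose in Th1 compared with Naive (2.45, edgeR adjusted p = 4.6e-04), a call made in every setting, and compared with Th17 (1.69, edgeR adjusted p = 0.0034, lost without either Th17 or either Th1 library). *Tnfsf8*, the ligand of CD30, rose in Th17 (2.06, edgeR adjusted p = 0.0017, lost without Naive replicate 1) and in Th1 (1.5, edgeR adjusted p = 0.0062, lost without Naive replicate 1, Th17 replicate 1 or either Th1 library).

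The cytokine *Il21*, made by follicular helper and by Th17 cells, stood at 1.75 and 1.73 CPM in Naive, 35.5 and 48.7 CPM in Th17 and 13.4 and 13.6 CPM in Th1. It rose in Th17 (log2 fold change 4.59, edgeR adjusted p = 6.9e-05) and in Th1 (2.95, edgeR adjusted p = 4.6e-04) in every setting, and it was lower in Th1 than in Th17 (-1.64, edgeR adjusted p = 0.0077), a call lost without either Th17 or either Th1 library. *Il4* was low throughout, at 1.28 and 1.29 CPM in Naive, 4.21 and 4.24 CPM in Th17 and 0.743 and 0.506 CPM in Th1, and was lower in Th1 than in Th17 (-2.71, edgeR adjusted p = 0.0084), a call lost without any 1 of the same 4 libraries. A group of 6 genes held 5 SLAM family receptors, not all of which signal through SAP, and the kinase gene *Fyn*. Among them, *Slamf7* was called higher in Th1, at 43.0 and 39.6 CPM. This stood against 9.78 and 9.85 CPM in Naive (2.07, edgeR adjusted p = 0.0062) and 1.93 and 4.30 CPM in Th17 (3.77, edgeR adjusted p = 6.4e-04). The first of these calls was lost without any 1 of the Naive and Th1 libraries, and the second was made in every setting. *Fyn* was higher in Th1 than in Th17 (2.02, edgeR adjusted p = 0.0034, lost without Th1 replicate 2 or either Th17 library). Of 6 receptors that position T cells, edgeR called only *Gpr183*, the oxysterol receptor EBI2, higher in Th1 than in Naive (1.35, edgeR adjusted p = 0.0071), and that call was lost when any 1 library was left out. DESeq2 also called *Selplg* in both Th1 comparisons and *Cxcr4* in Th1 compared with Naive.

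**Figure D4:**
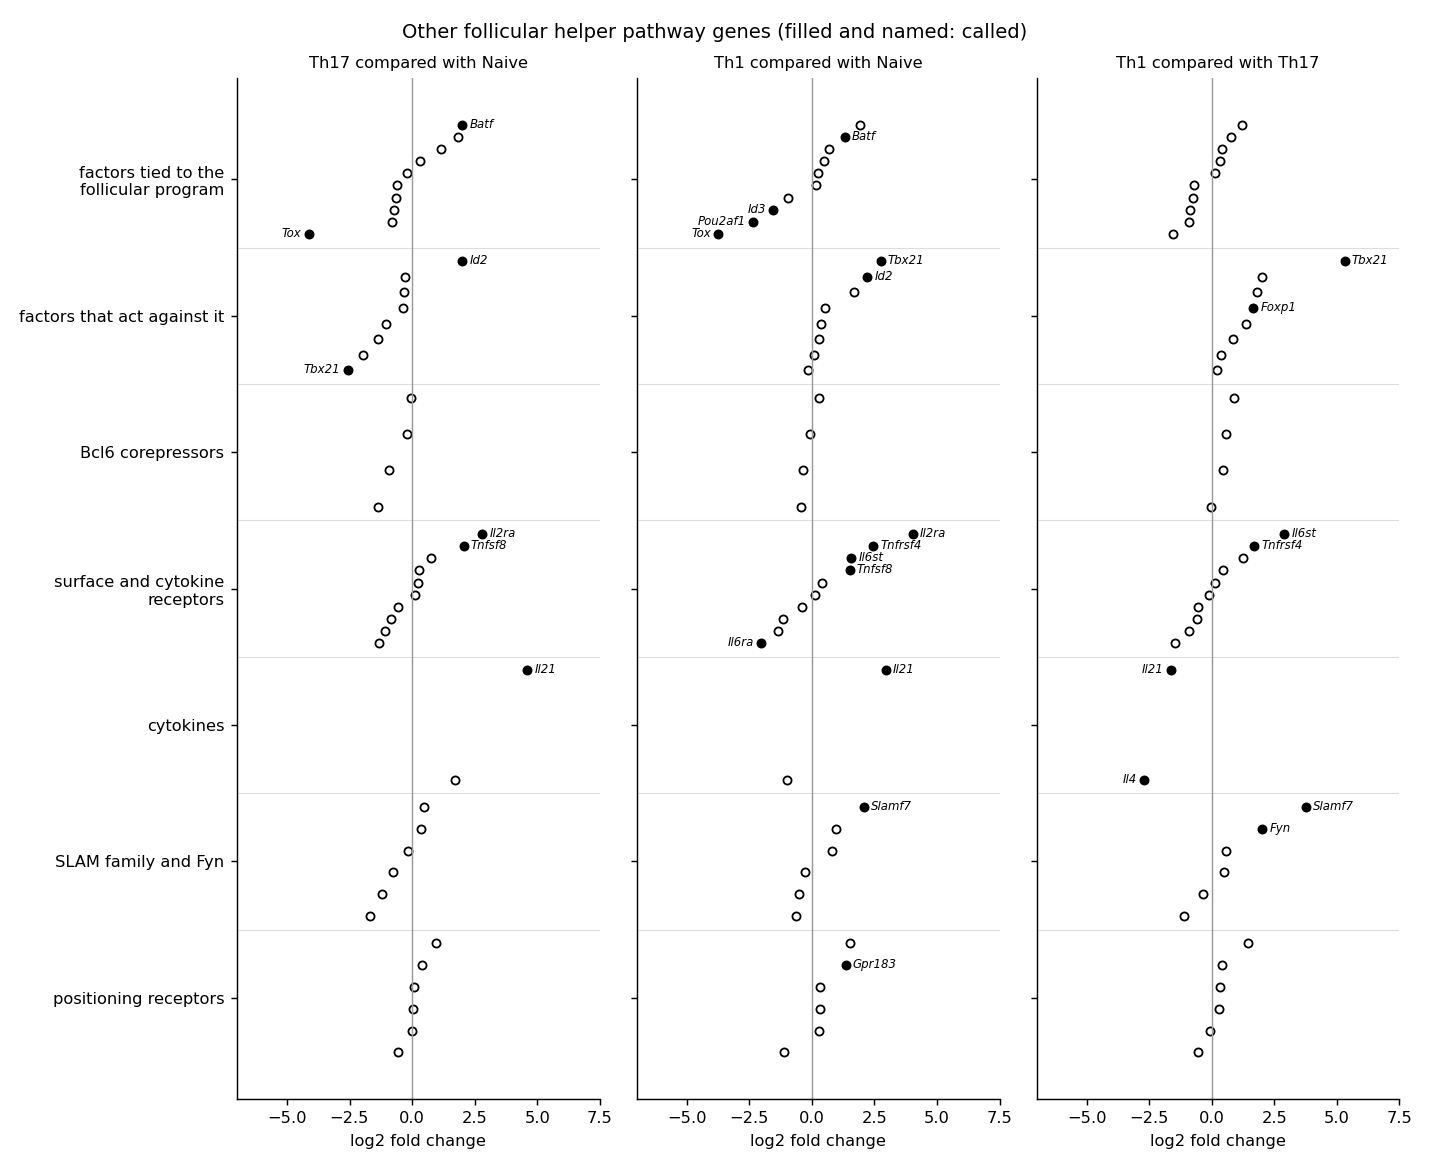
Log2 fold changes of the 46 other follicular helper genes tested, in 3 comparisons and 7 groups by role, with genes in each group ordered by their change. Filled, named points were called, and open points were not. In Th1 compared with Th17 all 8 factors of the opposing group lie to the right of 0, 7 of them with scaling by library size alone.

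The genes whose pattern over the 6 libraries was most like that of each gene were found among 11718 tested genes with a mean of at least 1 CPM, by the root mean square difference of log2 CPM centred on each gene's own mean. For *Tox2* the nearest was *Ccr6*, the receptor for CCL20 carried by Th17 cells, with a difference of 0.29, followed by *Peli2* (0.40) and *Spsb1* (0.49). *Ccr6* measured 2.57 and 4.61 CPM in Naive, 7.45 and 5.37 CPM in Th17 and 0.248 and 0.190 CPM in Th1. Its Th1 values rest on 16 and 3 counts, the second at the limit of detection. Like *Tox2*, by whose pattern it was picked, it was lowest in both Th1 libraries and highest in both Th17 libraries. *Prdm1* was nearest to *Atp10a* (0.20), *Trerf1* (0.22) and *Atp2b1* (0.26), of which *Atp10a* stood at 47.7 and 75.7 CPM in Naive, 81.7 and 49.7 CPM in Th17 and 309 and 261 CPM in Th1. *Cxcr5* was nearest to the relaxin gene *Rln3* (0.26), *Man1c1* (0.31) and *Cldn10* (0.32). *Icos* was nearest to *Muc1* (0.16), *Glrx* (0.17) and *Ptprk* (0.19). *Bcl6* was nearest to *Traf3ip3* (0.081), *Tmem198b* (0.10) and *Rpgrip1* (0.12), and *Sh2d1a* to *Ptpn18* (0.10), *Gas5* (0.11) and the ribosomal protein gene *Rpl15* (0.11), whose reads can be shared with processed copies. With Pearson's r in place of the difference, only *Rln3*, *Muc1* and *Ccr6* were again among the 3 nearest of their gene. The 6 libraries share their scaling and their 3 groups, and many genes follow the same order of groups.

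Markers of other cell types differed between the libraries. The 11 B cell genes summed to 17.6 and 13.5 CPM in Naive, 32.0 and 25.6 CPM in Th17 and 6.90 and 7.59 CPM in Th1. By group means, 10 of the 11 were higher in Th17 than in Naive and 3 were higher in Th1 than in Naive. *Ebf1*, a transcription factor that defines the B lineage, was at 0.0147 and 0 CPM in Naive and at 1.65 and 1.53 CPM in Th17, whereas the receptor gene *Cd22* was at 3.89 and 5.60 CPM in Naive, 3.90 and 2.60 CPM in Th17 and 2.88 and 1.45 CPM in Th1. *Cxcr5*, which B cells also express, was lower in Th17 than in Naive, where the sum was higher, and lower in Th1 than in Naive, where the sum was lower too. The part of B cells in the *Cxcr5* result was not tested. The 4 plasma cell genes, relevant to *Prdm1*, summed to 105 and 29.2 CPM in Naive, 7.77 and 12.8 CPM in Th17 and 1.11 and 1.71 CPM in Th1. Most of the sum in Naive was *Igj*, the antibody joining chain, at 94.4 and 26.7 CPM, while *Mzb1* stood at 4.46 and 0.990 CPM in Naive against 3.27 and 3.56 CPM in Th17. The sum was lowest in Th1, where *Prdm1* was highest, and the part of plasma cells in the *Prdm1* result was not tested.

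The 4 NK cell genes summed to 20.3 and 12.2 CPM in Naive, 2.31 and 2.43 CPM in Th17 and 0.464 and 0.253 CPM in Th1. This sum has the same order of cell types as *Cxcr5*. Most of it in Naive was *Klrb1c*, at 17.4 and 11.2 CPM. By group means, 1 of the 4, *Klre1*, was higher in Th17 (0.915 CPM) than in Naive (0.738 CPM), and 0 were higher in Th1 than in Th17. The part of NK cells in the *Cxcr5* result was not tested. The 12 myeloid genes summed to 351 and 212 CPM in Naive, 3081 and 3516 CPM in Th17 and 43.1 and 60.6 CPM in Th1. By group means, 11 of the 12 were higher in Th17 than in Naive and 0 were higher in Th1 than in Th17, while 7 were higher in Th1 than in Naive. The order of the sum, though not of most of its genes, is that of *Tox2*, and the part of myeloid cells in the *Tox2* result was not tested. The erythroid factor gene *Klf1* stood at 97.5 and 16.2 CPM in Naive and at most at 1.03 CPM elsewhere, also in the order of *Cxcr5*, while 4 globin genes were listed at 0 throughout. The 2 CD8 genes summed to between 5.66 and 11.3 CPM, with Th17 below Naive and the Th1 libraries overlapping both.

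**Figure D5:**
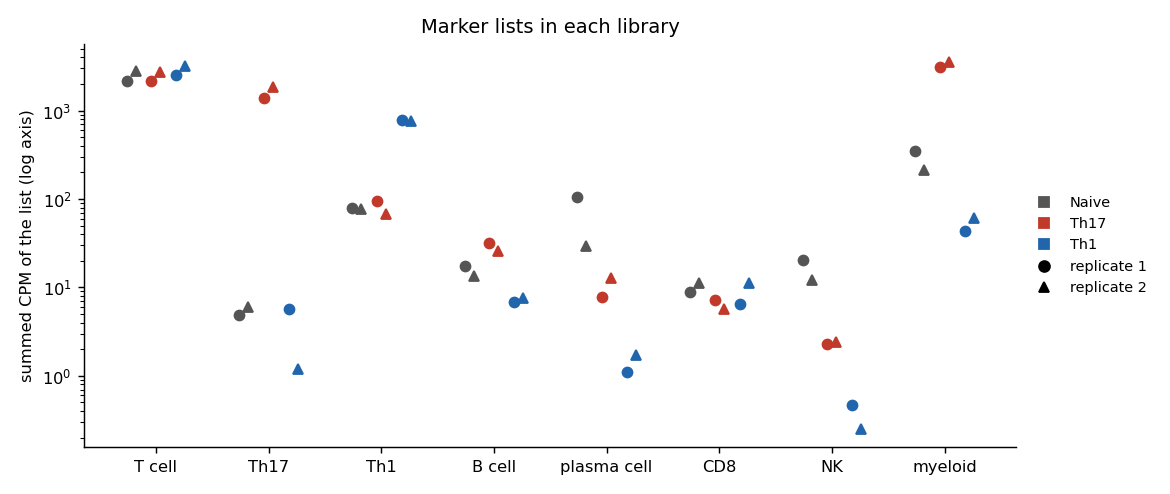
Summed CPM (log axis) of 8 marker lists in each library, with Naive in grey, Th17 in red and Th1 in blue, circles for replicate 1 and triangles for replicate 2. T cell genes lie between 2142 and 3173 CPM in all 6 libraries, and myeloid genes reach 3081 and 3516 CPM in Th17.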

How the data were processed

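Poly(A) RNA was sequenced from 6 libraries, 2 per cell type. The deposited values are raw counts per gene symbol for each library. The authors mapped reads to mm10 by HISAT2 (v2.2.1) and counted them by HTSeq (v0.13.5). According to the methods duplicates were removed and HTSeq ran with default parameters, whereas the supplementary code has no such removal and counts on the reverse strand. The gene annotation is not given in the sources used here. The study calls the replicates independent, but the labels do not tie them to animals, so p-values measure the spread between these samples.

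Tests were run by edgeR 4.0.16 in R 4.3.3 on all 6 libraries (filterByExpr, TMM factors 0.862 to 1.09, quasi-likelihood F-test). Cell type was the only term. The code was also run on data simulated from the means and spread of these libraries, which does not test the calls made here. DESeq2 1.42.0 was an alternative, as were other scalings, filters, thresholds, a replicate block, thinning and leaving out each library. CPM is relative to the TMM-scaled total, and log2 CPM for nearest genes used a prior count of 2. The SE is the log2 fold change divided by the square root of F. The 7 genes, the pathway list and the marker lists were chosen with earlier results of these data known, and 4 genes of these lists are not reported here and enter no list count or sum. Named genes were the 7, any pathway gene called in a comparison, the 3 nearest genes of each, and markers; *Jchain* and *Adgre1* were read under their older symbols *Igj* and *Emr1*. Promoters came from RefSeq (GRCm38.p6) and positions from GENCODE vM21.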

Additional observations from a re-analysis of the deposited data

How the results depend on the processing

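Of the 7 genes, *Cxcr5* and *Icos* in Th1 compared with Naive were called in all 15 alternative settings and *Tox2* in both Th1 comparisons in all 14 that tested it, with log2 fold changes between -4.33 and -3.73, 2.38 and 2.84, -4.56 and -3.99 and -5.70 and -4.69. *Bcl6* and *Sh2d1a* were called in none of 15 settings. An adjusted p under 0.05, which is 1 of these settings, uses the same fit, so no call can be lost there. Over all settings, 242 results for these genes stayed on their side of the threshold with their sign, 10 lost and 8 gained a call, and 7 uncalled ones changed sign. For *Bcl6*, Th1 compared with Naive was -0.053 with library size alone and ranged from -0.17 (without Th1 replicate 2; -0.12 without Naive replicate 1) to 0.63 (without Naive replicate 2), and Th1 compared with Th17 from -0.50 to 0.19 (without Th1 replicate 1). For *Prdm1*, Th17 compared with Naive ranged from -0.57 (without Th17 replicate 1; -0.10 without Naive replicate 1) to 0.72, and for *Sh2d1a* Th1 compared with Th17 from -0.66 to 0.26 (without Th17 replicate 2). The cause was not tested. A library left out leaves 1 in its group, which is assumed to vary like the others.

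Of the 7 genes, 1 was called in Th1 compared with Th17, against 3 (*Cxcr5*, *Prdm1* and *Tox2*) with DESeq2, with no filter on low counts or at an adjusted p-value under 0.05, and 0 with at least 10 counts in every library, which tested neither *Tox2* nor *Ascl2*. Leaving out a library gave 1 to 2 there, 0 to 2 in Th17 compared with Naive (0 without Th17 replicate 1) and 3 to 4 in Th1 compared with Naive. The log2 difference of the *Bcl6* to *Prdm1* ratio was -0.37 to 0.90 for Th17 minus Naive (-0.37 without Th17 replicate 2), -2.97 to -1.70 for Th1 minus Th17 and -2.34 to -1.79 for Th1 minus Naive. Of the pathway list, 7 genes were called in Th17 compared with Naive, against 15 with DESeq2, 16 with no filter and 14 at 0.05 (6 to 8 without a library). In Th1 compared with Naive 14 were called, against 19 with DESeq2, with no filter or at 0.05, 9 with library size alone and 9 with only the 4 libraries compared (8 to 11 without a library). In Th1 compared with Th17 8 were called, against 15 with DESeq2, 17 with no filter and 16 at 0.05 (3 to 9 without a library). Over all genes the counts for DESeq2, no filter, at least 10 counts and 0.05 were 1738, 2154, 343 and 2063 in Th17 compared with Naive (739 as reported, 319 to 885 without a library), 1928, 2259, 674 and 2164 in Th1 compared with Naive (1014, and 516 to 939) and 1824, 2232, 411 and 2112 in Th1 compared with Th17 (752, and 266 to 1016).

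With the replicate number as a block, 2 of the 7 genes were called in Th1 compared with Th17, *Tox2* and *Prdm1* (edgeR log2 fold change 2.04, adjusted p = 0.0066). The labels do not say that a number marks a shared animal or batch. Deviations of same-numbered libraries from their group means had correlations of -0.23 between Naive and Th17, 0.17 between Naive and Th1 and 0.08 between Th17 and Th1, so the numbers were not taken as pairs, although replicate 1 was the deeper library in every cell type. *Ascl2* had 0 to 2 counts in 5 of 6 libraries, among them 2 of the 3 deeper ones, and was not among the genes that passed the filter on low counts.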
